A study of Mus musculus with 3 samples.

Results

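The SPRR (small proline-rich) and LCE (late cornified envelope) genes and involucrin were described across the keratinocytes of mouse dorsal skin in 3 single-cell libraries. The members were every gene row whose symbol begins with Sprr, or with Lce and a digit, plus Ivl, which gave 38 of the 33696 gene rows. They comprised 16 Sprr rows, 21 Lce rows and Ivl. The Sprr rows were 12 of the Sprr2 group, among them the pseudogene Sprr2j-ps, and Sprr1a, Sprr1b, Sprr3 and Sprr4. The Lce rows were 14 of the Lce1 group, 6 of the Lce3 group and Lce6a.

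All animals were female C57BL/6 mice of 9 weeks, and all dorsal skin was taken from areas depilated with wax strips, so the controls carry the depilation too. The Cont library came from vehicle-treated mice that served as the negative control, the CIA library from a chemotherapy-induced alopecia model, and the CIA+VFX library from that model given venlafaxine, an antidepressant that blocks serotonin and noradrenaline reuptake. The chemotherapy agent, the doses, the days and the number of mice pooled into each library are not given in the sources used here. Cells were freed with 0.7 mg/mL collagenase D and were barcoded with a version 4 3' kit. Each group was 1 library of pooled skin, so no difference below was tested against the spread between animals. Intervals are 95% intervals that cover counting error only.

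The cornified envelope is a shell of crosslinked protein that replaces the plasma membrane of keratinocytes as they leave the living epidermis. Involucrin is laid down early as its scaffold, SPRR proteins act as crossbridges that transglutaminases bind into it, and LCE proteins join late. Sprr1b and the Sprr2 genes are known to be induced in injured or stressed epithelia, Lce1 genes belong to normal late differentiation, and Lce3 genes are known from wounded and psoriatic skin. The genes lie together on mouse chromosome 3 in the epidermal differentiation complex.

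The 250 bases before the start of 7 members are shown because these genes differed in how they behaved. Sprr2d and Sprr2f had the largest CIA-to-Cont ratios, Sprr2i had most of its counts in the CIA+VFX library, and Sprr2a3 was lower in CIA+VFX than in CIA. Sprr1b and Sprr1a are near relatives with unlike patterns, and Lce3d is the measured Lce gene that was higher in CIA than in Cont. The sequences run 5' to 3' on the gene's strand and come from RefSeq on GRCm38.p6, whereas the counts were made on GRCm39. Capitals mark matches to AP-1 (TGANTCA) and, in the Sprr2 genes, to the octamer (ATGCAAAT, which reads ATTTGCAT on the printed strand).
Sprr2d: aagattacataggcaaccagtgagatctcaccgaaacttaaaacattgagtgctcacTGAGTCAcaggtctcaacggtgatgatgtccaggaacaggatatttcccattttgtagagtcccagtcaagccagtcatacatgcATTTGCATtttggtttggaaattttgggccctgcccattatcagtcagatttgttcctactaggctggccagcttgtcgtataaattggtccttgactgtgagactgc
Sprr2f: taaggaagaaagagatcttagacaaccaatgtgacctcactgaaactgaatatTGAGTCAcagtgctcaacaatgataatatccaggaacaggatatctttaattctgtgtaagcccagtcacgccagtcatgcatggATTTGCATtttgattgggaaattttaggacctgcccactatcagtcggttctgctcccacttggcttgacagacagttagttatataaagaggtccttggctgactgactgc
Sprr2i: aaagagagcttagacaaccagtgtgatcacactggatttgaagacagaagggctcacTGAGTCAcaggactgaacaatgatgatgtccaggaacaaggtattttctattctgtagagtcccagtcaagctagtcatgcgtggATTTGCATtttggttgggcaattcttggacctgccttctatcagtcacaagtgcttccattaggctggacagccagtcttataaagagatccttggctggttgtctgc
Sprr2a3: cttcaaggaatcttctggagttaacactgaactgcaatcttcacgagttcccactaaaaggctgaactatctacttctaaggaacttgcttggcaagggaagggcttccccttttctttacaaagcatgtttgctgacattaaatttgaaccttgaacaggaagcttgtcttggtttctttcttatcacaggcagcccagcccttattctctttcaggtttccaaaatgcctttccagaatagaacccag
Sprr1b: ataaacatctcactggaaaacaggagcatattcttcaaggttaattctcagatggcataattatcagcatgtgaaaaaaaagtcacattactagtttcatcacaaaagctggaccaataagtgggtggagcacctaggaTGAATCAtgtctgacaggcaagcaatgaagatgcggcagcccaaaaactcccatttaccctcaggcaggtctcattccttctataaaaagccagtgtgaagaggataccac
Sprr1a: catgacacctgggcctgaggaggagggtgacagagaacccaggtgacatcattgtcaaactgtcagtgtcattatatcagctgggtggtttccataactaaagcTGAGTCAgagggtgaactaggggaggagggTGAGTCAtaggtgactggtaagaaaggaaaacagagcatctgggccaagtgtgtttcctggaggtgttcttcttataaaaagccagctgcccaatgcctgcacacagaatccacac
Lce3d: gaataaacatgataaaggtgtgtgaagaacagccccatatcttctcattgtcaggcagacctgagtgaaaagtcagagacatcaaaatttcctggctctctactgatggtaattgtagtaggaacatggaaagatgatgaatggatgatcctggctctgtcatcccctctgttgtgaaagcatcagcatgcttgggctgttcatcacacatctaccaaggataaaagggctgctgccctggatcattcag

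Sprr2d lies at chr3:92338890-92339139 on the plus strand, Sprr2f at chr3:92364937-92365186 plus, Sprr2i at chr3:92407741-92407990 plus and Sprr2a3 at chr3:92285054-92285303 plus. Sprr1b lies at chr3:92438780-92439029 on the minus strand, Sprr1a at chr3:92485882-92486131 minus and Lce3d at chr3:92957140-92957389 plus. RefSeq gave such a stretch for 35 of the 38 members, all but Sprr2g, Sprr2j-ps and Lce1f. On either strand, AP-1 matched 10 of these 35, against 6.75% of 32851 mouse promoters of the same length. The 10 were Sprr2b, Sprr2d, Sprr2e, Sprr2f, Sprr2h, Sprr2i, Sprr2k, Sprr1a, Sprr1b and Ivl, and none of the 20 Lce stretches held it. The octamer matched the same 7 Sprr2 genes and no other member, against 1.6% of all promoters. In Sprr2d, Sprr2e and Sprr2i AP-1 stood at -193 to -187 from the start and the octamer at -108 to -101.

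An ETS sequence (AGGAAG) matched 18 of the 35 members, 10 of 20 Lce and 5 of 10 Sprr2 genes, against 29.5% of all promoters. A STAT sequence (TTCNNNGAA, 7.02% of promoters) matched Sprr2a3 and Lce1l, a KLF sequence (GGGTGTG, 6.93%) matched Ivl and Lce1j, and an interferon response sequence (GAAA, any 2 bases, then GAAA, 2.98%) matched no member. Sprr2d was 88.0% identical to Sprr2e, 69.6% to Sprr2i, 62.6% to Sprr2f and 32.2% to Sprr2a3. The last was close to the 29.5% that Sprr2d shared with Sprr1a. Each value is the best match without gaps over shifts of up to 20 bases, taken on the 233 to 250 bases that overlap. Choosing the best shift raises the values of unlike stretches. Sprr2a1, Sprr2a2 and Sprr2a3 were the 3 Sprr2 genes whose stretch held neither AP-1 nor the octamer. These matches are descriptions of letters, not sites shown to be bound.

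The libraries held 14529 (Cont), 17675 (CIA) and 18987 (CIA+VFX) barcodes with medians of 5950, 4977 and 4923 UMIs (unique molecular identifiers, counts of RNA molecules), and shared at most 110 barcodes between any 2. After filters and removal of called doublets 4211, 3922 and 6303 cells were keratinocytes by their markers, with median depths of 11566, 7017.5 and 7626 UMIs. Each was assigned to the 1 of 9 marker panels on which it scored highest, or to none. Such a gate is a range and not a cell type: 19.95%, 20.07% and 20.21% of keratinocytes lay near a gate's limit, and the limits were set after the data had been seen. Summed CPM of 4 neutrophil markers in the keratinocytes was 3.71, 47.2 and 16.9, of macrophage markers 44.6, 42.4 and 28.8, of fibroblast markers 237, 209 and 293, of T and NK markers 5.13, 5.67 and 4.16, of melanocyte markers 28.6, 10.8 and 16.1, and of erythroid markers 30.4, 4.23 and 18.2. S100a8 and S100a9, 2 of the neutrophil markers, are also made by wounded keratinocytes, and the part of these levels in the results was not tested.

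Levels are counts scaled to 1000000 UMIs of the named cells (CPM), from 3' tags, so gene length does not enter. Over all keratinocytes the summed Sprr2 level was 7.55 CPM in Cont (492 UMIs), 91.6 in CIA (3764 UMIs) and 89.8 in CIA+VFX (6326 UMIs). With all these cells kept, both model libraries were therefore far above Cont and close to each other. CIA exceeded Cont 12.1-fold (11.0 to 13.4) and CIA+VFX exceeded Cont 11.9-fold, with a CIA+VFX-to-CIA log2 ratio of -0.03 (-0.09 to 0.03). Called doublets, left out here, held 29.98% of the Sprr2 UMIs of CIA and 4.23% of those of CIA+VFX. The CIA+VFX-to-CIA ratios of single genes were also taken without the 5 keratinocytes of each library richest in Sprr2. Sprr2a3, Sprr2e and Sprr2h then stood at -1.18, -0.74 and -0.67, Sprr2d, Sprr2f and Sprr2g at -0.33, 0.09 and 0.18. Sprr2i, Sprr2j-ps and Sprr2k stood at 2.19, 0.68 and 0.72. Sprr1b, which encodes a crossbridge protein inducible by stress, showed the same order: 3.53, 71.6 and 63.7 CPM, 20.3-fold (17.7 to 23.3) higher in CIA than in Cont. Sprr1a was by far the most abundant member, at 409, 740.2 and 522 CPM, and was 1.81-fold higher in CIA than in Cont. It made up most of the summed Sprr level of 421, 905 and 677 CPM.

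**Figure D1:**
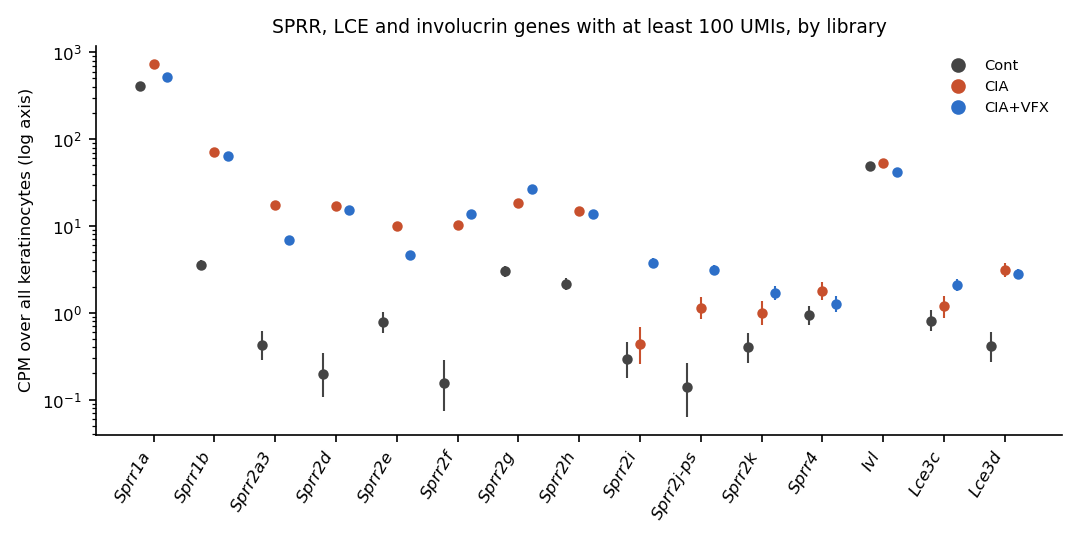
CPM over all keratinocytes (log axis) of the 15 members with at least 100 UMIs; each point is 1 library (Cont grey, CIA orange, CIA+VFX blue) and bars are exact 95% Poisson intervals for counting error. The Sprr2 genes and Sprr1b sit above Cont in both model libraries, least so Sprr2i in CIA (0.438 against 0.292 CPM), while Ivl stays between 41.7 and 53.0 CPM in all 3.

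Among the Sprr2 genes, which encode closely related short crossbridge proteins, Sprr2d went from 0.1995 CPM in Cont to 17.1 in CIA and 15.5 in CIA+VFX. Sprr2f stood at 0.154, 10.2 and 13.6 CPM, and Sprr2a3 at 0.430, 17.6 and 6.91. These 3 had the highest CIA-to-Cont ratios of the measured members: 85.9-fold (49.9 to 162) for Sprr2d, 66.6-fold (35.9 to 140) for Sprr2f and 41.0-fold (28.1 to 62.1) for Sprr2a3. Sprr2e was 12.8-fold higher, at 0.783 CPM in Cont and 10.0 in CIA, and stood at 4.63 in CIA+VFX. Sprr2g (2.99, 18.5 and 26.7 CPM) and Sprr2h (2.15, 14.9 and 13.8 CPM) had the highest Sprr2 levels in Cont. Their CIA-to-Cont ratios, 6.19-fold and 6.93-fold, were smaller than that of Sprr2e.

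The 3 scarcest of the named Sprr2 genes had their highest level in CIA+VFX. Sprr2i stood at 0.292, 0.438 and 3.78 CPM (19, 18 and 266 UMIs), Sprr2j-ps at 0.138, 1.14 and 3.10 CPM, and Sprr2k at 0.399, 0.998 and 1.69 CPM. Sprr2i was 8.62-fold (5.35 to 14.8) higher in CIA+VFX than in CIA, although its 250 upstream bases, printed above, hold the AP-1 and octamer letters in the same places as those of Sprr2d. Sprr2d itself had a CIA+VFX-to-CIA log2 ratio of -0.15. Only 29 cells of CIA+VFX carried Sprr2i, and 5 of them held 78.57% of its UMIs. Sprr4, known to be inducible by ultraviolet light, stood at 0.936, 1.78 and 1.28 CPM. Sprr2a1, Sprr2a2 and Sprr2b had 1, 0 and 0 UMIs in Cont, 5, 6 and 15 in CIA and 5, 2 and 6 in CIA+VFX, and Sprr3, a gene of mucosal epithelia, had none in any library.

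Involucrin hardly moved over all keratinocytes, at 49.3, 53.0 and 41.7 CPM, with a CIA-to-Cont log2 ratio of 0.10 (0.03 to 0.18) and a CIA+VFX-to-CIA ratio of -0.35 (-0.43 to -0.27). The small CIA-to-Cont ratio turned negative, at -0.17, when each cell counted equally. The summed Lce level was low, at 2.58 CPM in Cont (168 UMIs), 5.18 in CIA (213 UMIs) and 5.55 in CIA+VFX (391 UMIs). The CIA+VFX-to-CIA log2 ratio of the sum, 0.10 (-0.15 to 0.35), became -1.62 without the 5 keratinocytes of each library richest in Sprr2. Lce3 genes stood at 1.32, 4.53 and 5.04 CPM, 3.43-fold higher in CIA than in Cont. Lce1 genes stood at 0.798, 0.584 and 0.440 CPM, with a CIA-to-Cont log2 ratio of -0.45 (-1.21 to 0.27) and a CIA+VFX-to-Cont ratio of -0.86 (-1.55 to -0.19). In the suprabasal and upper follicle gates the Lce1 and Lce3 groups pointed the same way between CIA and Cont, on few UMIs. Both were higher in the suprabasal gate (Lce1 2, 14 and 13 UMIs, Lce3 1, 134 and 283). Both were lower in the upper follicle (Lce1 38, 3 and 1, Lce3 19, 3 and 6). Only suprabasal Lce3 had at least 50 UMIs over CIA and Cont. The interval of the suprabasal Lce1 log2 ratio, 2.03 (-0.09 to 5.21), included no difference.

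Of the Lce genes only Lce3d and Lce3c had 100 UMIs over the 3 libraries. Lce3d stood at 0.414, 3.12 and 2.80 CPM and was 7.52-fold (4.93 to 11.9) higher in CIA than in Cont. In CIA 15 cells carried it, and 1 of them held 71 of its 128 UMIs. Lce3c stood at 0.813, 1.19 and 2.10 CPM, a CIA-to-Cont log2 ratio of 0.55 (-0.04 to 1.14). The other Lce1 genes with any count were Lce1f (23, 17 and 19 UMIs), Lce1g (18, 0 and 2) and 9 others with at most 9 UMIs in all. Lce1g was at least 3.78-fold lower in CIA, taking 3 counts as the floor for its 0 UMIs. Lce6a had 30, 3 and 5 UMIs, Lce3e 0, 6 and 1, Lce3f 2, 2 and 9, Lce3a 4, 0 and 0, and Lce3b 0, 1 and 0, and Lce1e, Lce1i and Lce1j had none.

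Some members cannot be told apart by a 3' tag. In GENCODE M21 transcripts, every 90-base window of the last 500 bases of Sprr2a1 and Sprr2a2 occurs in another member, as do 42.3% of those of Sprr2a3, and 29.9% to 38.2% of those of Lce3c, Lce3d, Lce3e and Lce3f. Counts within Sprr2a1 to Sprr2a3 and among these Lce3 genes are therefore uncertain. The other Sprr genes and Ivl had no shared window.

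A gene was taken as measured with at least 50 UMIs over the 2 libraries compared, and as higher or lower with a CPM ratio of at least 1.5-fold. In CIA against Cont 12 of the 14 measured members were higher and 0 lower, where 12.7% of 15795 measured genes were higher and 5.22% lower. The median log2 ratio was 2.85 over these members and 0.05 over all measured genes. The 2 that met neither limit were Ivl and Lce3c. Between CIA+VFX and Cont 12 of 15 were higher and 0 lower (9.32% and 4.06% of all genes, medians 2.76 and 0.02), and Sprr1a, Sprr4 and Ivl met neither limit. Without the 5 keratinocytes of each library with the most Sprr2 UMIs the calls of Lce3c and Lce3d were lost, at -0.09 and -0.345.

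In CIA+VFX against CIA 4 of 15 measured members were higher, namely Sprr2i, Sprr2j-ps, Sprr2k and Lce3c, and 2 were lower, Sprr2a3 (2.55-fold) and Sprr2e (2.16-fold). Over all measured genes 2.92% were higher and 4.59% lower, and the medians were -0.15 for the members and -0.02 for all. The comparisons share libraries, so their ratios are linked by construction. Sprr1a and Sprr1b stood 0.50 and 0.17 lower on the log2 scale in CIA+VFX than in CIA, and Lce3d 0.16 lower. Without the 5 keratinocytes of each library with the most Sprr2 UMIs, Lce3c turned to -0.63 and Lce3d to -3.25. Sprr2h (-0.67) then also passed the limit for lower. Sprr2e (-0.74) and Sprr2a3 (-1.18) stayed past it, and Sprr2i stayed at 2.19.

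Most Sprr2 molecules came from a small number of cells. Keratinocytes with any Sprr2 UMI were 162 of 4211 (3.85%) in Cont, 251 of 3922 (6.40%) in CIA and 403 of 6303 (6.39%) in CIA+VFX. Macrophages, which should not make them, had 0.216%, 1.07% and 1.22% positive cells at median depths of 4762, 4750 and 5133.5 UMIs, taken as the share that free RNA can give. With every cell thinned to 2000 UMIs, leaving out 336, 443 and 843 shallower keratinocytes, the shares were 0.802%, 2.78% and 2.68% in keratinocytes and 0.0601%, 0.419% and 0.523% in macrophages. The 20 richest keratinocytes held 50.6%, 72.1% and 71.7% of all Sprr2 UMIs.

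The richest keratinocyte had 53 Sprr2 UMIs in Cont, 480 in CIA and 1060 in CIA+VFX. Cells with at least 100 Sprr2 UMIs numbered 0 of 4211 in Cont, which allows a share of up to 0.0712% (3 cells of 4211), and 11 in each of CIA and CIA+VFX. Cells with 3 or more different Sprr2 genes numbered 1, 41 and 64. Cells with several genes of the group were thus more numerous in both model libraries. In thinned CIA keratinocytes with a Sprr1b UMI, 43.3% also had a Sprr2 UMI, against 1.81% of those without, and in CIA+VFX the shares were 49.0% and 1.64%. These shares pool all gates, so they include differences between gates and are not a contrast of like cells. Before thinning, the suprabasal gate held 1880 of the 2943 Sprr1b UMIs of CIA keratinocytes and 3801 of the 4489 of CIA+VFX.

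**Figure D2:**
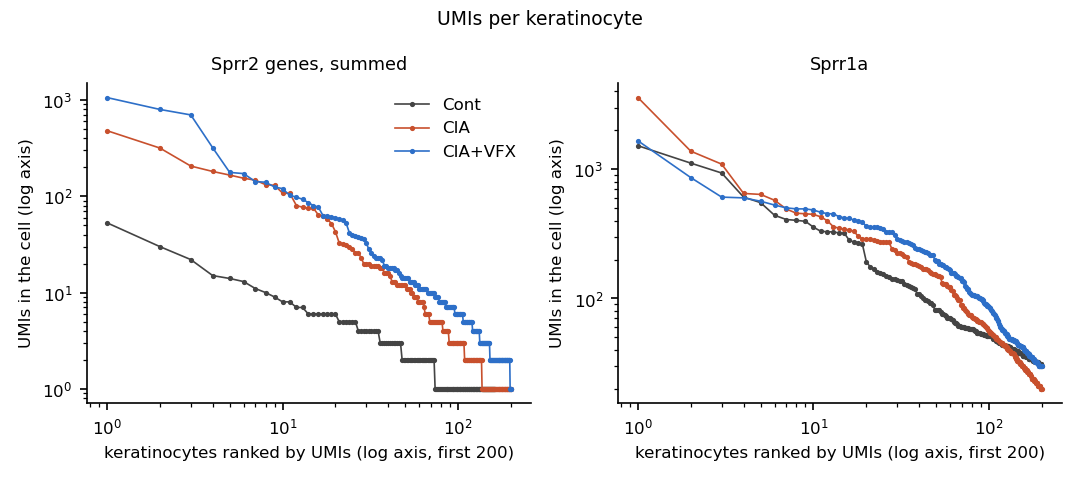
UMIs per cell (log axis) in the first 200 keratinocytes of each library ranked by their UMIs (log axis), for the summed Sprr2 genes at left and Sprr1a at right; each point is 1 cell. The Cont curve for Sprr2 starts at 53 UMIs and lies at or below both model libraries, and the richest Sprr1a cell is in CIA, with 3581 UMIs.

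The 5 richest Sprr2 cells fell in different gates in the model libraries. In CIA they carried 480, 317, 206, 181 and 166 Sprr2 UMIs and all fell in the companion layer gate. In CIA+VFX they carried 1060, 798, 700, 319 and 177 UMIs, all fell in the suprabasal gate, and had between 350 and 2203 UMIs of Krt10, a keratin of differentiating epidermis. Among the CIA cells 1 had 1559 Krt10 UMIs and 1 had 177, and the others at most 1. Lor, which encodes loricrin, had 0 UMIs in all 5 richest cells of each of the 3 libraries. The first CIA+VFX cell had 104623 UMIs in all against a gate median of 12400, and was not called a doublet.

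Lce UMIs were more concentrated still. The richest keratinocyte held 16.1% of them in Cont, 33.3% in CIA and 62.9% in CIA+VFX. For Lce3d in CIA+VFX that was 173 of 197 UMIs, or 87.8%, in the cell with 1060 Sprr2 UMIs. Cells with any Lce UMI were 0.950%, 1.17% and 0.746% of keratinocytes, against 0.144%, 0.102% and 0.0763% of macrophages. Sprr1a was spread more widely, with 29.2%, 26.4% and 24.97% of keratinocytes positive and 5.03%, 5.35% and 5.12% of macrophages, and Ivl was detected in 19.9%, 12.4% and 12.8% of keratinocytes and 1.15%, 0.612% and 0.840% of macrophages. Thinned to 2000 UMIs, the Sprr1a shares in keratinocytes were 15.9%, 15.7% and 14.4% and the Ivl shares 5.91%, 4.66% and 4.18%.

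The suprabasal gate, led by Krt77, Krt1 and Krt10, held 76, 130 and 231 cells with median depths of 11999, 14586.5 and 12400 UMIs, of which 6, 12 and 21 lay near its limit and 68.4%, 62.3% and 66.7% in a cluster led by Krt1, Krt77 and Krt10. Here the summed Sprr2 level was 18.8 CPM in Cont (21 UMIs), 711 in CIA (1363 UMIs) and 1537 in CIA+VFX (5039 UMIs). Each library stood above the one before it: CIA was 37.9-fold (24.7 to 61.4) above Cont, and CIA+VFX 2.16-fold above CIA. Part of that last difference rests on a few cells: its log2 ratio of 1.11 (1.03 to 1.20) went to 0.72 without the gate's own 5 richest cells in each library and to 0.65 without the 20 keratinocytes of each library richest in Sprr2. Without the 5 richest keratinocytes it was -0.12, but that removal takes 5 suprabasal cells from CIA+VFX and 0 from CIA. The share of suprabasal cells with a Sprr2 UMI was 10.5%, 46.2% and 45.5%, or 2.54%, 27.8% and 29.7% when thinned (3, 11 and 14 cells too shallow).

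Within the suprabasal gate 9 of 10 measured members were higher in CIA than in Cont and 0 lower, where 12.3% of measured genes were higher and 21.2% lower. The median log2 ratio was 5.27 with the 2 members at 0 in Cont set to their bounds, 5.61 with their ratios unbounded, and -0.12 over all genes. Sprr1b stood at 19.7, 981 and 1160 CPM (22, 1880 and 3801 UMIs), 49.8-fold (32.8 to 79.7) higher in CIA. Sprr1a stood at 888, 2975 and 3508 CPM, 3.35-fold higher. Taking 3 counts for a 0, Sprr2f (0, 176 and 767 UMIs) was at least 34.2-fold higher in CIA and Lce3d (0, 100 and 177 UMIs) at least 19.4-fold. The lower ends of their 95% intervals were 27.5-fold and 15.5-fold. Ivl was the member that met neither limit, at 94.8, 135 and 265 CPM (log2 ratio 0.51).

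In the suprabasal gate of CIA+VFX against CIA 10 of 14 measured members were higher and 1 lower, against 9.26% and 9.47% of all genes, with medians of 0.995 and -0.01. Without the 5 keratinocytes of each library richest in Sprr2, 4 members were higher and 3 lower. All 5 removed CIA+VFX cells were of this gate, and all 5 removed CIA cells were of the companion layer gate. With all cells kept, Sprr2i had the highest ratio, from 4.17 to 68.3 CPM (8 and 224 UMIs, 16.4-fold, 8.17 to 38.4). Sprr2j-ps (20 and 189 UMIs, log2 ratio 2.47) and Sprr2k (6 and 55 UMIs, 2.42) came next. Sprr2a3 moved the other way, at 3.58, 155 and 66.2 CPM in Cont, CIA and CIA+VFX, 2.35-fold lower in CIA+VFX than in CIA. Sprr2g, the most abundant Sprr2 gene of CIA+VFX, stood at 2.68, 142 and 499 CPM. Sprr1a, Sprr1b and Lce3d met neither limit, with log2 ratios of 0.24, 0.24 and 0.05. Ivl stood at 0.98, and at 1.79 without its own 5 richest cells in each library. Of the Sprr2i UMIs of all CIA+VFX keratinocytes, 1 cell held 39.47% and 5 cells held 78.57%. For Sprr2j-ps these shares were 39.45% and 74.77%.

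Against Cont, all 14 measured members were higher in the suprabasal gate of CIA+VFX, where 8.37% of genes were higher and 18.1% lower. The members' median log2 ratio was 4.61 with the 5 members at 0 in Cont at their bounds, 6.82 unbounded, and -0.13 over all genes. Lce UMIs in the gate numbered 4, 148 and 296, but only 4, 8 and 8 cells carried them (5.26%, 6.15% and 3.46%), and the 5 richest held 97.97% of them in CIA and 98.65% in CIA+VFX. Neutrophil markers summed to 5.37, 38.6 and 43.9 CPM in the gate, with Csf3r, their defining receptor, at 0 UMIs in all 3 libraries. Csf3r also entered the score that kept neutrophils out of the keratinocytes, so its absence was favoured by the gating. Companion-layer panel genes summed to 90.3, 2269 and 1122 CPM there, and their part in the result was not tested.

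The companion layer gate is defined by Krt75, Krt6a, Krt6b and Krt16, of which Krt6a, Krt6b and Krt16 are also made by injured epidermis. It held 564, 493 and 596 cells, of which 69, 66 and 85 lay near the limit. Sprr2 genes summed to 14.9 CPM in Cont (145 UMIs), 334 in CIA (1966 UMIs) and 85.1 in CIA+VFX (630 UMIs). CIA was thus highest, 22.4-fold (18.9 to 26.7) above Cont, and CIA+VFX was 3.92-fold below CIA. The 5 cells of CIA richest in Sprr2 lie in this gate and none of those of CIA+VFX does; without the 5 of each library CIA stood at 107.0 CPM, 21.3-fold above Cont, and the CIA+VFX-to-CIA log2 ratio went from -1.97 to -0.33 (-0.49 to -0.17). Without the gate's own 5 richest cells in each library it was -1.90 (-2.13 to -1.67). Of the 9 measured members 9 were higher in CIA than in Cont (12.8% of all genes, and 9.65% lower), 9 were lower in CIA+VFX than in CIA (6.91% of all genes, and 4.03% higher), and 7 were higher in CIA+VFX than in Cont (9.86% higher, 6.18% lower). The median log2 ratios of the members were 3.88, -1.52 and 2.36, against -0.05, 0.01 and -0.04 over all genes. Without the 5 keratinocytes of each library richest in Sprr2, 3 members were lower and 1 higher in CIA+VFX than in CIA.

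Sprr2d moved most in the companion layer gate, with 0.513, 80.6 and 9.73 CPM (5, 475 and 72 UMIs). It was 157-fold (66.9 to 486) higher in CIA than in Cont and 8.29-fold lower in CIA+VFX than in CIA. Without the 5 keratinocytes of each library richest in Sprr2, a removal that takes 5 cells of the gate from CIA and 0 from CIA+VFX, 90 of its 475 CIA UMIs and none of its Cont UMIs remained, and CIA+VFX was 1.61-fold below CIA. By CIA-to-Cont ratio Sprr2a3 (0.924, 50.1 and 16.4 CPM, 54.2-fold) and Sprr2f (0.718, 31.6 and 16.9 CPM) came next. Sprr2e stood at 1.13, 43.6 and 5.68 CPM and Sprr2g at 7.39, 75.6 and 17.4. Sprr1a stood at 197, 575 and 279 CPM, Sprr1b at 10.6, 152 and 63.5, and Ivl at 57.4, 102 and 40.5. Even involucrin, flat over all keratinocytes, thus had its highest companion-gate level in CIA.

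The gate's makeup differed between libraries. In Cont the clusters that held most of its cells were led by Itga2, Wincr1 and Anln (27.8%) and by Foxn1, Krt71 and Krt28 (26.8%), in CIA the leading clusters were those of Fcgbp, Gm44613 and Ifi202b (19.3%) and of Pthlh, Gm31115 and Wfdc18 (14.6%), and in CIA+VFX the Pthlh cluster (20.3%) and the Itga2 cluster (17.0%). In CIA and CIA+VFX most cells of the gate lay in other clusters. Suprabasal panel genes summed to 1308, 4760 and 2410 CPM in it, and neutrophil markers to 8.31, 219 and 33.9 CPM. Csf3r, whose absence the gating favoured, was at 0 in CIA. The part of these in the companion result was not tested. Together, the suprabasal and companion gates held 4.27% and 29.5% of Sprr2 UMIs in Cont, 36.2% and 52.2% in CIA, and 79.7% and 9.96% in CIA+VFX.

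**Figure D3:**
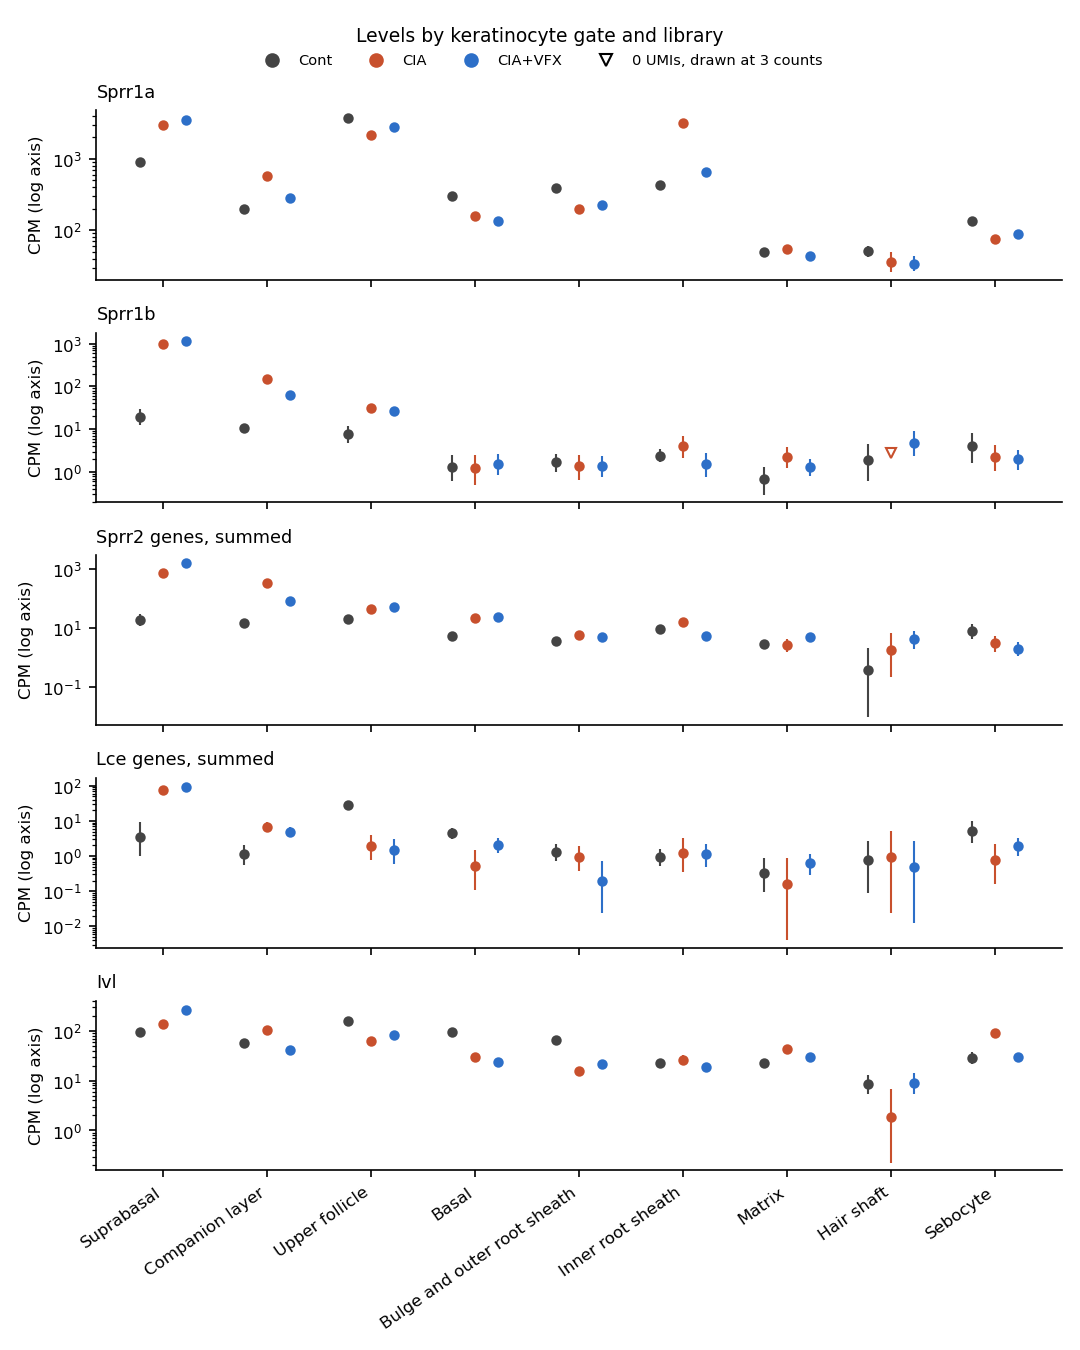
CPM (log axis) of Sprr1a, Sprr1b, the summed Sprr2 genes, the summed Lce genes and Ivl in 9 keratinocyte gates; points are libraries, bars exact 95% Poisson intervals, and a triangle marks 0 UMIs drawn at 3 counts. Sprr2 is highest in the suprabasal gate of CIA+VFX (1537 CPM), and CIA leads in the companion layer (334 CPM). Lce is highest in the suprabasal gate of CIA+VFX (90.3 CPM), while Cont leads in the upper follicle (28.3 CPM).

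The 2 gates meet in a cluster led by Krt1, Krt77 and Krt10, found with the 38 members left out of the clustering. It held 103, 140 and 230 cells with median depths of 13287, 17064 and 15906 UMIs. Of its Sprr2 UMIs the companion gate held 53.8% in CIA, from 20 cells, and 7.49% in CIA+VFX, from 14 cells, while the suprabasal gate held 43.4% and 89.6%. Over the whole cluster the Sprr2 level was 53.9, 1218 and 1385 CPM, with log2 ratios of 4.50 between CIA and Cont and 0.19 between CIA+VFX and CIA. The opposite directions of the gates in CIA+VFX against CIA were thus not seen when their cells were pooled in this cluster, where the ratio was -0.19 without the 5 richest keratinocytes and -0.07 without the cluster's own 5 richest cells.

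Within that cluster the Sprr2 genes were still divided. Sprr2a3 (7.11, 188 and 59.8 CPM) and Sprr2e (3.05, 151 and 65.3) were lower in CIA+VFX than in CIA. Sprr2f (3.05, 121 and 224), Sprr2g (21.3, 243 and 429), Sprr2i (0, 4.13 and 57.4) and Sprr2j-ps (0, 16.9 and 48.2) were higher, and Sprr2d (3.56, 275 and 262) and Sprr2h (15.8, 214 and 218) were nearly level. Sprr1b stood at 25.4, 1124 and 1054 CPM. Sprr1a stood at 5195, 5090 and 5590 CPM over the cluster, a CIA-to-Cont log2 ratio of -0.03. In the cluster's suprabasal cells (52, 81 and 154) Sprr1a stood at 1038, 4036 and 4294 CPM, and in its upper follicle cells (50, 38 and 62) at 8863, 7630 and 9151 CPM.

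In the cluster Lce1 and Lce6a were highest in Cont, where 50 of its cells are of the upper follicle gate, which held 38 of the 52 keratinocyte Lce1 UMIs of Cont: Lce1g had 18, 0 and 0 UMIs, Lce6a 20, 0 and 0, and the Lce1 sum stood at 19.3, 6.20 and 3.97 CPM, from 5, 4 and 6 cells. Lce3 genes stood at 9.65, 59.9 and 74.0 CPM. Loricrin (Lor), the major protein of the mature envelope, was also highest in Cont, at 110 CPM against 1.24 in CIA and 16.9 in CIA+VFX. Krt16, a wound keratin, stood at 139, 2734 and 1121 CPM, and Ivl at 228, 167 and 267 CPM.

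**Figure D4:**
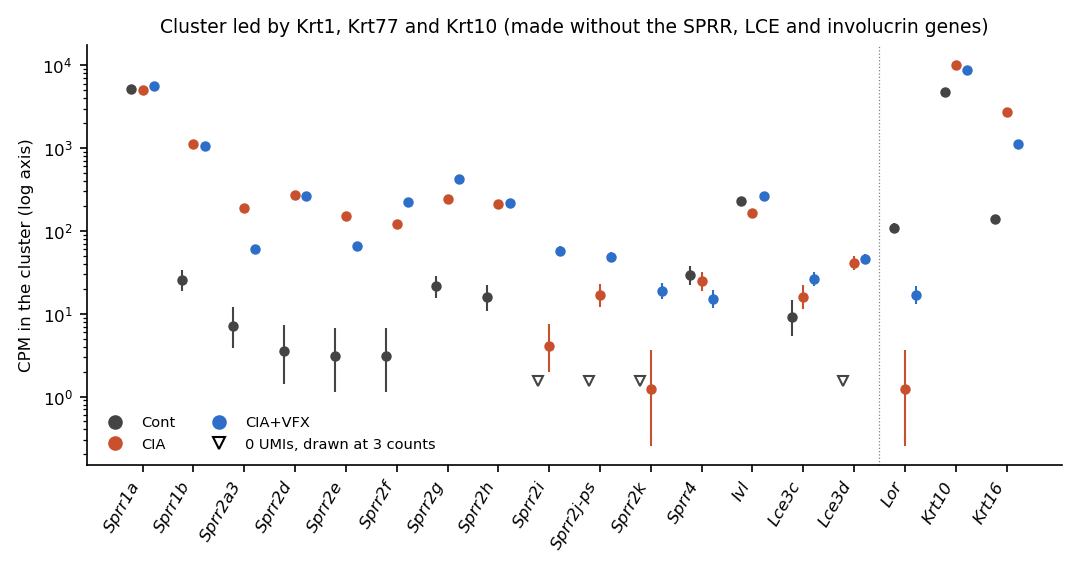
CPM (log axis) of the 15 named members, and right of the dotted line Lor, Krt10 and Krt16, in the cluster led by Krt1, Krt77 and Krt10; points are libraries, bars exact 95% Poisson intervals, triangles 0 UMIs drawn at 3 counts. Sprr1a is level across libraries at 5090 to 5590 CPM while Sprr1b and the Sprr2 genes lie above Cont, and Lor is lowest in CIA at 1.24 CPM.

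The upper follicle gate, led by Defb6 and Cst6, held 215, 295 and 403 cells, 20, 40 and 55 of them near its limit, and had the highest Sprr1a level of any gate in Cont. Sprr1a stood at 3690, 2133 and 2780 CPM there, so CIA was 1.73-fold below Cont, the reverse of the suprabasal and companion gates, though 1.45-fold without the 5 richest cells of each library, which held 46.5% of the Cont UMIs. Of the gate's cells 23.3%, 12.9% and 15.4% lay in the cluster led by Krt1, Krt77 and Krt10, and these held 9241 of its 10172 Sprr1a UMIs in Cont. Within those cells the levels were closer, at 8863, 7630 and 9151 CPM. Cells with a Sprr1a UMI were 52.1%, 46.1% and 45.2%. Ivl followed Sprr1a, at 158.5, 63.2 and 83.0 CPM, 2.51-fold lower in CIA than in Cont. Sprr1b moved against them, at 7.62, 30.9 and 27.1 CPM (21, 113 and 130 UMIs), 4.06-fold higher in CIA, and Sprr2f had 0, 53 and 45 UMIs, at least 13.3-fold higher.

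Lce UMIs of Cont lay largely in the upper follicle gate, which held 78 of the library's 168 keratinocyte Lce UMIs. Their summed level there was 28.3, 1.91 and 1.46 CPM (78, 7 and 7 UMIs), 14.8-fold lower in CIA than in Cont and 19.4-fold lower in CIA+VFX. The Cont UMIs came from 8 cells, of which 5 held 94.9%. Most Sprr4 UMIs lay in the gate too, which held 58 of 61, 61 of 73 and 80 of 90 of its UMIs, and its level there was 21.04, 16.7 and 16.7 CPM. Of the 6 measured members 2 were higher and 2 lower in CIA than in Cont (14.7% and 12.6% of all genes). Of the 8 measured in CIA+VFX against CIA 1 was higher, Sprr2g, and 2 lower, Sprr2e and Sprr2f (3.93% and 6.29%), and of the 6 measured against Cont 1 was higher and 1 lower (8.41% and 10.4%).

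The basal and bulge gates likewise had less Sprr1a and Ivl in both model libraries than in Cont. In basal cells Sprr1a stood at 299, 160 and 135 CPM and Ivl at 93.2, 29.8 and 23.5 CPM. In the bulge and outer root sheath Sprr1a stood at 387, 199.6 and 225 CPM and Ivl at 64.8, 15.7 and 21.96 CPM. All 4 of these CIA-to-Cont ratios passed the limit for lower, 2 of 3 measured members in basal cells and 2 of 2 in the bulge, where 8% and 4.07% of all genes did. The exception was Sprr2a3, which in basal cells stood at 0.585 CPM in Cont, 18.8 in CIA and 13.7 in CIA+VFX (4, 109 and 114 UMIs), 32.2-fold over Cont in CIA, where 16.5% of genes were higher. The 5 richest basal cells held 73.4% of the Sprr2a3 UMIs of CIA, and 24 cells carried any. In CIA+VFX against CIA no member met either limit in these 2 gates, where 3.68% and 2.67% of genes were higher and 3.95% and 5.57% lower. In CIA+VFX against Cont 1 basal member was higher and 2 lower (14.3% and 7.8% of genes), and in the bulge 0 were higher and 2 lower (12.9% and 3.51%). The makeup of both gates differed between libraries. A cluster led by Kcnb2, Gnmt and Scrg1 held 46.99%, 29.01% and 34.57% of basal cells in Cont, CIA and CIA+VFX. It held 66.36%, 41.98% and 54.47% of bulge cells, and the part of this in the results was not tested.

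The inner root sheath gate, led by Krt73, Prr9 and Tchh, held 692, 254 and 555 cells, and Sprr1a there showed a pattern of its own. It stood at 426 CPM in Cont, 3195 in CIA and 657 in CIA+VFX (6184, 10209 and 4732 UMIs), 7.49-fold higher in CIA than in Cont and 4.87-fold lower in CIA+VFX than in CIA. The peak in CIA was carried partly by few cells: the 5 richest held 28.5%, 69.2% and 55.5% of the Sprr1a UMIs, the first with 440, 3581 and 1658. Without them the levels were 309.8, 1014 and 301.5 CPM, log2 ratios of 1.71 and -1.75 in place of 2.91 and -2.28. Cells with a Sprr1a UMI were 35.8%, 40.2% and 32.1%, or 17.7%, 27.1% and 17.5% when thinned to 2000 UMIs.

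Sprr2 genes were scarce in the inner root sheath and also highest in CIA, at 9.38, 15.96 and 5.55 CPM (136, 51 and 40 UMIs), 1.70-fold (1.21 to 2.37) above Cont. Without their own 5 richest cells the CIA-to-Cont log2 ratio was -0.74 (-1.93 to 0.26). Of the 4 measured members Sprr1a and Sprr2h were higher and none lower in CIA than in Cont (6.14% and 6.86% of genes), Sprr1a was the 1 lower of 2 in CIA+VFX against CIA (4.03% lower, 5.72% higher), and Sprr1a was higher and Sprr2g and Sprr2h lower in CIA+VFX against Cont (4.75% and 3.09%). The last Sprr1a call, 1.54-fold, was lost without its 5 richest cells (log2 ratio -0.04), that of Sprr2h had an interval of -1.77 to 0.17, and Sprr2g had under 50 UMIs without the 5 keratinocytes richest in Sprr2. The gate's own panel summed to 16490, 41280 and 22970 CPM, and fibroblast markers to 256, 362 and 440 CPM, whose part in the result was not tested. In the cluster led by Prr9, Krt73 and Tchh, made without the members, Sprr1a stood at 960, 8670 and 1567 CPM. There 1 CIA cell that lay outside the keratinocyte gate held 3249 Sprr1a UMIs. Over the cluster's cells in the inner root sheath gate the levels were 960, 6863 and 1572 CPM.

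The remaining gates had low levels of most members. In the matrix Sprr1a stood at 49.4, 54.2 and 44.0 CPM and Ivl at 22.8, 42.8 and 29.3, the 1 member higher in CIA than in Cont, with 0 lower (7.82% and 3.62% of genes). No matrix member met either limit in CIA+VFX against CIA (2.22% of genes higher, 4.29% lower) or against Cont (6.12% and 3.08%). In hair shaft cells Sprr1a stood at 50.6, 36.4 and 34.1 CPM and was the 1 measured member, with no call in CIA against Cont (9.98% of genes higher, 5.3% lower) or in the other comparisons. In sebocytes, the oil-forming cells, Ivl stood at 28.9, 92.1 and 29.6 CPM (51, 366 and 219 UMIs), higher in CIA than in Cont, while Sprr1a stood at 136, 75.5 and 88.8 CPM and was lower (12.1% and 21.7% of genes). Without the 5 richest cells of each library the Ivl log2 ratio was 2.70 in place of 1.67, and that of Sprr1a 0.40 in place of -0.85. Ivl was the 1 member lower in CIA+VFX than in CIA among sebocytes (3.29%).

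Other genes of the envelope were counted for comparison over all keratinocytes. Of 33 other cornified envelope and barrier genes 30 were measured in CIA against Cont, 11 higher and 5 lower, with a median log2 ratio of 0.20, where 12.7% of all measured genes were higher and 5.22% lower. The lowest ratios were those of Flg2, Kprp and Lor: Flg2, a filaggrin relative, went from 126 UMIs to 0 (at least 26.5-fold lower), Kprp from 0.813 to 0.122 CPM, and Lor from 4.16 to 1.29 CPM. Krt1 (32.5 to 401 CPM), Crct1 (13.2 to 89.0) and Rptn, which encodes repetin (0.123 to 2.80), were the highest. In CIA+VFX against CIA 2 of 28 were higher and 5 lower (2.92% and 4.59% of all genes), the lowest being Rptn (2.80 to 0.398 CPM), Crct1 (89.0 to 19.1) and Tchhl1 (5.67 to 1.89), and the 2 higher Krt77 (32.2 to 107.5) and Lor (1.29 to 2.07).

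Of the 19 crosslinking and processing enzymes, the transglutaminases and proteases that build and mature the envelope, 8 were higher and 0 lower in CIA than in Cont (median 0.41). The highest were the kallikreins Klk6 (134 to 863 UMIs), Klk8 (8.27 to 28.8 CPM) and Klk10 (8.12 to 27.3), and Tgm3, a transglutaminase, was near the bottom (14.3 to 10.9). In CIA+VFX against CIA 1 was higher, Alox12b (log2 ratio 0.99), and 4 lower, Klk10 (-1.06) first. Of the 33 transcription factors of late differentiation 4 were higher and 1 lower in CIA, shares close to those of all genes, Ehf (31.6 to 109 CPM), Cebpa (31.2 to 50.6) and Elf3 (13.6 to 21.5) highest and Grhl1 (200.6 to 125) lowest, and none passed either limit in CIA+VFX against CIA.

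Of the 16 genes of wounded keratinocytes 14 were measured in CIA against Cont, 11 were higher and 0 lower, with a median of 2.17. Stfa3, a stefin, went from 1.81 to 202 CPM (112-fold), Stfa1 from 1.32 to 48.7 and Serpinb3a from 0.0921 to 1.92. In CIA+VFX against CIA 9 of 15 were lower and 0 higher (median -0.82), Krt6b (22.5 to 3.07 CPM) and S100a9 (24.6 to 7.01) lowest. With all cells kept the Sprr2 sum differed by -0.03 in that comparison. Single genes of the sum were divided once the 5 keratinocytes of each library richest in Sprr2 were removed. Sprr2a3, Sprr2e and Sprr2h were then past the limit for lower, and Sprr2i, Sprr2j-ps and Sprr2k past that for higher. Of the 9 targets of NRF2, a factor of the response to oxidants, 2 were higher and 1 lower in CIA than in Cont (median -0.01), Slc7a11 (3.30 to 10.2 CPM) and Nqo1 (2.56 to 6.98) being higher and Srxn1 (32.3 to 16.9) lower, and 0 were higher and 1 lower in CIA+VFX against CIA.

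Against Cont, where 9.32% of all genes were higher and 4.06% lower, CIA+VFX had 6 higher and 7 lower of 30 measured envelope genes, 8 and 1 of 19 enzymes, 2 and 0 of 33 transcription factors, 10 and 0 of 14 wound genes and 2 and 1 of 9 NRF2 targets, and Flg2 stayed low at 0.0568 CPM (4 UMIs). Within the suprabasal gate, with genes chosen by the same rule, Lor went from 55.5 CPM in Cont to 1.04 in CIA (62 and 2 UMIs) and 20.8 in CIA+VFX, and Flg2 from 83 UMIs to 0 in CIA. Wound genes there were 11 higher and 0 lower of 12 in CIA against Cont and 3 higher and 7 lower of 13 in CIA+VFX against CIA. Stfa3 stood at 7.15 CPM in Cont and 2079 in CIA. Krt6b went from 51.1 to 1.53 CPM between CIA and CIA+VFX. It is a gene of the companion panel, which competes with the suprabasal panel for cells, so the gating shaped its level here. Sprr2 levels in the gate were 711 and 1537 CPM, a difference that depended on the richest cells as given above. The 2 changes are therefore not a contrast free of the gating.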

How the data were processed

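Whole dorsal skin of 3 groups was profiled as single cells, 1 library of pooled mice per group. The deposited files hold UMI counts per gene and barcode, made by the authors with Cell Ranger 8.0.1 on GRCm39, with FastQC 0.11.7 also named, per the submitters' processing notes. No per-sample column was left unused (0).

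Barcodes under 500 detected genes or above 15% mitochondrial UMIs were left out. Doublets were called by simulation (2 per cell, 30 components, 30 neighbours) at an expected 0.4% per 1000 barcodes, which removed 734, 1172 and 1263 cells and left 11904, 15401 and 15372. A cell was a keratinocyte if the mean log-normalised level (counts per 10000) of 18 keratinocyte markers was at least 0.5 and above that of 10 other compartments, and then took the panel with the highest z score if that was at least 0.5. The neutrophil score used Csf3r and Retnlg alone and erythroid genes did not compete, a choice made after seeing the data. Near a limit means within 0.2 of it. Clusters (2000 variable genes without the members, 40 components, 20 neighbours, Leiden resolution 1.5) were named by leading genes.

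Counts were summed per library and gate, and ratios of CPM were given exact conditional binomial intervals, levels Poisson intervals and shares Clopper-Pearson intervals, at 95%. With 1 library per group there was no test. A gene was measured with at least 50 UMIs over 2 libraries and called at 1.5-fold. Thinned shares are exact expected values at 2000 UMIs. A member with at least 100 keratinocyte UMIs was given in every library; in a gate the 3 members with the most UMIs and the 3 highest and 3 lowest ratios were named, and from each of the 5 lists the 3 highest and 3 lowest. Members singled out beyond these were chosen after their values were seen. The members and lists were chosen with earlier results of these data known. Summing, ratios and calls were tested on simulated data.

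Alternatives, whose effects are given below, changed the filters, the doublet step, the gates, the scaling (TMM from edgeR 4.0.16, median of ratios), the weighting of cells, the depth, the free RNA (5% removed) and the richest cells. Upstream sequences were RefSeq's on GRCm38.p6 and 3' ends GENCODE M21's, matched by symbol. Python 3.11.15 (numpy 2.4.6, scipy 1.17.1, scikit-learn 1.9.0, pandas 2.3.3, igraph 0.11.9, leidenalg 0.10.2, matplotlib 3.10.9) and R 4.3.3 were used.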

Additional observations from a re-analysis of the deposited data

Results flagged for a closer look

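Log2 ratios of a member pointed in opposite directions in different gates of the same comparison; with 1 library per group the difference was not tested in any of them. For CIA against Cont, Sprr1a stood at 2.91 in the inner root sheath and -0.95 in the bulge and outer root sheath, and Ivl at 1.67 in sebocytes and -2.05 in the bulge and outer root sheath. For CIA+VFX against CIA, Ivl stood at 0.98 in the suprabasal gate and -1.64 in sebocytes. In the same comparison 5 Sprr2 genes were higher in the suprabasal and lower in the companion layer gate: Sprr2d (1.36 and -3.05), Sprr2e (0.68 and -2.94), Sprr2f (1.35 and -0.90), Sprr2g (1.81 and -2.12) and Sprr2h (0.72 and -1.52). The 5 keratinocytes richest in Sprr2 all lay in the companion gate in CIA and in the suprabasal gate in CIA+VFX. Without them 4 members were higher and 3 lower in the suprabasal gate, and 1 higher and 3 lower in the companion gate.

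Barcodes that enter no comparison also held these genes. In barcodes left out by the filter on genes and mitochondrial counts, Sprr2 genes summed to 33.2 CPM in CIA and 11.4 in CIA+VFX against 1.80 in Cont, and Sprr1 genes to 145.9 and 96.9 against 59.9. In called doublets Sprr2 genes summed to 113 CPM in CIA and 15.4 in CIA+VFX against 4.87 in Cont, Sprr1 genes to 496 in CIA against 266 in Cont, and Lce genes to 14.2 in CIA against 3.58 in Cont. The called doublets held 11.7%, 29.98% and 4.23% of the Sprr2 UMIs of Cont, CIA and CIA+VFX, and 21.2%, 47.0% and 14.6% of the Lce UMIs.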

How the results depend on the processing

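Of 294 values under alternatives 184 moved by less than the limit set for them and 110 further. The direction was kept in 187 of 204 ratios and changed in 17, of which 5 had been past 1.5-fold as reported and 12 had not. The cause of each move was not tested. No paired analysis was possible because each group is 1 library with no replicate number. The values as reported were log2 ratios of 1.10 (CIA against Cont), -0.42 (CIA+VFX against CIA) and 0.68 (CIA+VFX against Cont) for the Sprr sum, 1.01, 0.10 and 1.11 for the Lce sum, 0.10, -0.35 and -0.24 for Ivl, 5.24 and 1.11 for suprabasal Sprr2, 2.91 and -2.28 for inner root sheath Sprr1a and -0.79 for upper follicle Sprr1a in CIA against Cont. Counts of higher and lower members were 12 and 0, 4 and 2, and 12 and 0. In what follows the 3 comparisons keep this order. Counts of members are given there without the share of all genes under the same setting. They therefore cannot tell a shift of the members from a shift of all genes.

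With a minimum of 10 UMIs the lower members became 2, 5 and 2, and with 200 UMIs the higher members of CIA+VFX against CIA became 2. With a stricter filter (1000 genes, 8% mitochondrial UMIs) the Sprr sum went to -0.38 and 0.71 in the last 2 comparisons, and in CIA+VFX against CIA Lce went to 0.37, suprabasal Sprr2 to 1.245 and inner root sheath Sprr1a to -2.19. Without doublet removal the Sprr sum was 1.19, -0.59 and 0.595, Lce 1.57 and -0.68 in the first 2, suprabasal Sprr2 0.98 in CIA+VFX against CIA with 5 members lower, and CIA against Cont gave 2.85 for inner root sheath and -0.69 for upper follicle Sprr1a. With Leiden clusters in place of gates the Sprr sum was 1.14, -0.53 and 0.61, suprabasal Sprr2 4.50 and 0.185, inner root sheath Sprr1a 3.08 and -2.47, upper follicle Sprr1a -0.69, the lower members of CIA+VFX against Cont 1, and the thinned share of suprabasal CIA+VFX cells with Sprr2 36.65% in place of 29.7%.

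Scaling by median of ratios gave a Sprr sum of 1.03, -0.38 and 0.645, inner root sheath Sprr1a 2.83 and upper follicle Sprr1a -0.865, and TMM 1.04, -0.39, 0.65, 2.84 and -0.85. With every cell weighted equally the Sprr sum was 0.92, -0.57 and 0.36, Lce -1.34 and -0.22 in the last 2, a change of sign against Cont, and Ivl -0.17 and -0.48 against Cont in CIA and in CIA+VFX. Suprabasal Sprr2 and inner root sheath Sprr1a then were 0.40 and -2.66 in CIA+VFX against CIA, with 2 members higher and 7 lower, and upper follicle Sprr1a -0.61. Thinned to 2000 UMIs the Sprr sum was 1.06, -0.54 and 0.52, Lce 1.70, -1.375 and 0.33, Ivl -0.093 and -0.495 against Cont, suprabasal Sprr2 0.45 in CIA+VFX against CIA, inner root sheath Sprr1a 2.99 and -2.77 and upper follicle Sprr1a -0.44. Members then numbered 0 higher and 4 lower in CIA+VFX against CIA and 6 higher against Cont.

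The following alternatives were chosen after seeing the data. With the whole neutrophil and erythroid panels competing the Sprr sum was 1.03 and -0.35 in the first 2, with 7 members higher and 1 lower in CIA+VFX against CIA. Without the 5 keratinocytes of each library richest in Sprr2 the Sprr sum was 1.001, -0.48 and 0.52, Lce -1.62 in CIA+VFX against CIA and -0.62 against Cont, Ivl -0.32 against Cont, and suprabasal Sprr2 -0.12 in CIA+VFX against CIA with 5 members lower. Without the 20 richest the Sprr sum was 0.96 and 0.56 against Cont, Lce 1.585, -1.70 and -0.12, suprabasal Sprr2 4.28 and 0.65, and upper follicle Sprr1a -0.48. Without the 5 cells richest in the gene or sum itself the Sprr sum was 1.04, -0.31 and 0.73, Lce 0.23, -0.41 and -0.18, Ivl -0.027 and -0.25 in the first 2, suprabasal Sprr2 6.82 and 0.72, inner root sheath Sprr1a 1.71 and -1.75 and upper follicle Sprr1a -0.54. The 5 changes of sign from a ratio past 1.5-fold were Lce in CIA+VFX against Cont, with every cell weighted equally and under the 3 removals of cells, and suprabasal Sprr2 in CIA+VFX against CIA without the 5 keratinocytes richest in Sprr2, a removal that takes 5 suprabasal cells from CIA+VFX and 0 from CIA. The other 12 were Lce in CIA+VFX against CIA (6), Ivl in CIA against Cont (3) and suprabasal Sprr1b in CIA+VFX against CIA (3). Sprr1b, Sprr2 and Lce values by gate without the richest cells, given above, were also added after seeing the data. Depth limits the 19 members with 1 to 99 UMIs and the 76 suprabasal cells of Cont.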
